A study of Mus musculus with 11 samples.

Results

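Complex I of the respiratory chain was followed in adrenal RNA through the genes whose array symbol starts with Nduf. Of 40 such genes, read by 53 probes, 39 had a detection p-value under 0.05 in at least 5 of 10 mice and were analysed, among 9302 named genes that met the same rule. These 39 were 33 nuclear subunit genes, 5 assembly factors (Ndufaf1, Ndufaf3, Ndufaf4, Ndufaf5 and Ndufaf7) and 1 pseudogene, Ndufs5-ps, whose probe may also read its parent gene. The 1 gene that was not detected, Ndufs1, encodes the large iron-sulfur subunit of the matrix arm. Its signal was 159, 170, 101, 90 and 144 in the mINDY-KO mice, against 116 and 121 (on both arrays of WT replicate 1), 136, 134, 157 and 166 in the WT mice, with a detection p of 0.05 or more in each of them.

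The mINDY-KO mice were homozygous for a germline deletion in Slc13a5, the gene of the plasma membrane citrate transporter mINDY, which had been made with an Hprt1-Cre transgene, so that every tissue carried it. They were compared with WT littermates (n = 5 mice each), both on a C57B/6J backcross and both male, 12 to 16 weeks old and fed standard chow. Whole adrenals were used, and RNA was read on 1-colour Illumina bead arrays, with 1 array per mouse and a technical repeat for WT replicate 1. The study asked what loss of the transporter does to adrenal transcription.

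Complex I, the NADH:ubiquinone oxidoreductase, takes electrons from NADH in the mitochondrial matrix and passes them to ubiquinone, and it pumps protons across the inner membrane. It has an L shape. The matrix arm holds the flavin and the iron-sulfur clusters, and the membrane arm holds the pumps, whose core subunits are encoded in mitochondrial DNA. Around the core lie accessory subunits, which the nucleus encodes, and assembly factors join the parts without staying in the finished enzyme. Adrenocortical cells are rich in mitochondria, where steroid hormone synthesis begins.

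The promoters of 4 members are shown first, because the results below turn on these genes. Ndufb5 and Ndufs4 had the smallest p-values between genotypes among subunits, and Ndufs3 had the smallest among core subunits. Ndufa6 was among the genes whose levels, as defined below, set mINDY-KO replicates 3 and 4 apart. The windows run 5′ to 3′ from 250 bases before to 50 bases after the transcription start annotated by RefSeq on GRCm38.p6. Capitals mark the letters ATGGCGGC (a YY1 motif) in Ndufb5 and Ndufs4, GCATGCGC (the NRF1 core) in Ndufa6, and CCGGAAG (an ETS motif, the family of GABPA) or its reverse complement in Ndufs3. The windows lie at chr3:32736813-32737112 on the plus strand for Ndufb5, chr13:114388045-114388344 on the minus strand for Ndufs4, chr15:82354242-82354541 on the minus strand for Ndufa6 and chr2:90904672-90904971 on the minus strand for Ndufs3.
Ndufb5: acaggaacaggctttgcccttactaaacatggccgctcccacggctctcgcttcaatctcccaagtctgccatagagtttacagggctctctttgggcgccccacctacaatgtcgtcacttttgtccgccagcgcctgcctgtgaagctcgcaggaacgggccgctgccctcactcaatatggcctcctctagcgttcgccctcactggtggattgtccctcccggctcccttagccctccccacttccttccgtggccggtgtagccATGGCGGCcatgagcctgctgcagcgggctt
Ndufs4: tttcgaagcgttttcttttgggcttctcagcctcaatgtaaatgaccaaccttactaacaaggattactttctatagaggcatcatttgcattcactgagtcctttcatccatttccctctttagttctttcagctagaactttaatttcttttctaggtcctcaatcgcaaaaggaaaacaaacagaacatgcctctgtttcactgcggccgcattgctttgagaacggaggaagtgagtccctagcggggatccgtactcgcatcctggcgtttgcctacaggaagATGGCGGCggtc
Ndufa6: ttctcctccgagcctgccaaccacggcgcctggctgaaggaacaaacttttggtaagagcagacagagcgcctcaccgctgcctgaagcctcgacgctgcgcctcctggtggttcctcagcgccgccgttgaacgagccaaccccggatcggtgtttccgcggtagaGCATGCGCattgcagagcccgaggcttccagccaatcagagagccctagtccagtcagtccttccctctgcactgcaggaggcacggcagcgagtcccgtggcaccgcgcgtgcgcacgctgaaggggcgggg
Ndufs3: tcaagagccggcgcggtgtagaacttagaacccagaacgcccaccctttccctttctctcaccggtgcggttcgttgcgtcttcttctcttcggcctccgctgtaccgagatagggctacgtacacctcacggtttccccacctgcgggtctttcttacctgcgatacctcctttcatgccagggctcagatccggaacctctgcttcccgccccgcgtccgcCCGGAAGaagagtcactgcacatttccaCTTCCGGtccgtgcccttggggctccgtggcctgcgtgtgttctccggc

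NRF1, GABPA, the estrogen-related receptors, CREB and YY1 are transcription factors known for nuclear genes of respiration, and the letters of a motif of each were searched on both strands. RefSeq windows were matched for 36 of the 39 members by symbol, 31 of them subunits. ATGGCGGC stood in the windows of 6 of the 31 subunit genes (19.4%), Ndufa7, Ndufa9, Ndufb5, Ndufs4, Ndufs6 and Ndufs7, against 2.24% of all 32851 windows and 2.6% of the 27025 genes they belong to. In Ndufb5 it ran from base 20 to base 27 of the transcript and in Ndufs4 from base 39 to base 46, and since its first letters are those of a start codon, such matches can lie at the start of a coding region, which was not determined. GCATGCGC was found in Ndufa6 and Ndufa8 (6.45%, against 2.71% of all windows and 3.05% of all genes), 83 to 76 bases before the start in Ndufa6. CCGGAAG was found in Ndufb6, Ndufb7, Ndufs3 and Ndufs8 (12.9%, against 8.86% of windows and 9.93% of genes), and Ndufs3 held it on both strands. AAGGTCA, a motif of the estrogen-related receptors, was found in 2 subunit genes, Ndufb2 and Ndufb4 (6.45%, against 4.72% of windows and 5.38% of genes), and TGACGTCA, the cAMP response element, in 2, Ndufa10 and Ndufb2 (6.45%, against 1.79% of windows and 2.03% of genes). GCATGCGC shares letters with its own reverse complement, and in Ndufb2, the 1 subunit gene with 2 of these motifs, their positions did not overlap. These matches describe the windows and were not tied to the genotype values.

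The arrays set limits on what follows. Values are given as levels: the log10 signals of an array were centred on 0, scaled to unit SD and multiplied by the constant 1.57. A level of 0 is the array's mean. A difference of 1 is exactly 1 log2 unit only on an array whose SD of log2 signal equals that constant. This SD was 1.644, 1.667, 1.514, 1.441 and 1.576 on the arrays of mINDY-KO replicates 1 to 5. On WT arrays it lay between 1.514 and 1.598. Log2 units and log2 fold changes of levels are therefore meant on this scale, and are approximate for a single array. The median signal was 191, 238, 127, 122 and 194 on mINDY-KO arrays and 150 to 202 on WT arrays, so that mINDY-KO replicates 3 and 4 had the dimmest arrays. Over the Nduf genes, both arrays of WT replicate 1 differed by a median of 0.10 and by at most 0.38. Slc13a5 was not detected in any mouse, with detection p-values between 0.0714 and 0.357, and so does not check the genotypes. All 7 markers of adrenal cortex were detected, and those of striated muscle (0 of 4) and kidney (0 of 3) were not. In RNA of whole adrenals, fewer cells of a type and less RNA per cell cannot be told apart.

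No Nduf gene passed the test between genotypes. On the scaled levels, subunits were on balance slightly higher in mINDY-KO adrenals, but on that scale the balance rested on 2 of the 5 mINDY-KO mice. Its size depended on the normalization. At an adjusted p under 0.05 (limma, Benjamini-Hochberg over 13341 probes), 0 of 39 Nduf genes differed, where 0.015% of all probes did. At an unadjusted p under 0.05, 3 Nduf genes were higher in mINDY-KO adrenals, Ndufb5, Ndufs4 and Ndufa4, against 4.33% of all genes tested, and 0 were lower, against 7.01% of all genes. Of the 33 subunit genes, 26 (78.8%) had a higher mean in mINDY-KO mice, against 43.6% of all genes. Their median log2 fold change was 0.092, against -0.019 over all genes, and their fold changes ran from -0.083 to 0.39. With quantile or neqc normalization, 20 of the 33 were higher, against 47.0% and 46.9% of all genes, and the median came to 0.031 and 0.032. With log2 signal centred on the array median and not scaled, 25 of the 33 were higher, against 43.1% of all genes, with a median of 0.076. Whether the balance rests on the same 2 mice under these normalizations was not computed. There was no member in which all mINDY-KO mice lay above all WT mice, or all below them, as was so for 0.753% and 1.38% of all genes. In Ndufb5 and Ndufs4, 4 of the 5 mINDY-KO mice exceeded all WT mice. The 95% intervals of 36 members included 0, and over the 39 members the intervals reached from 0.15 to 0.35 to either side of the fold change.

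**Figure D1:**
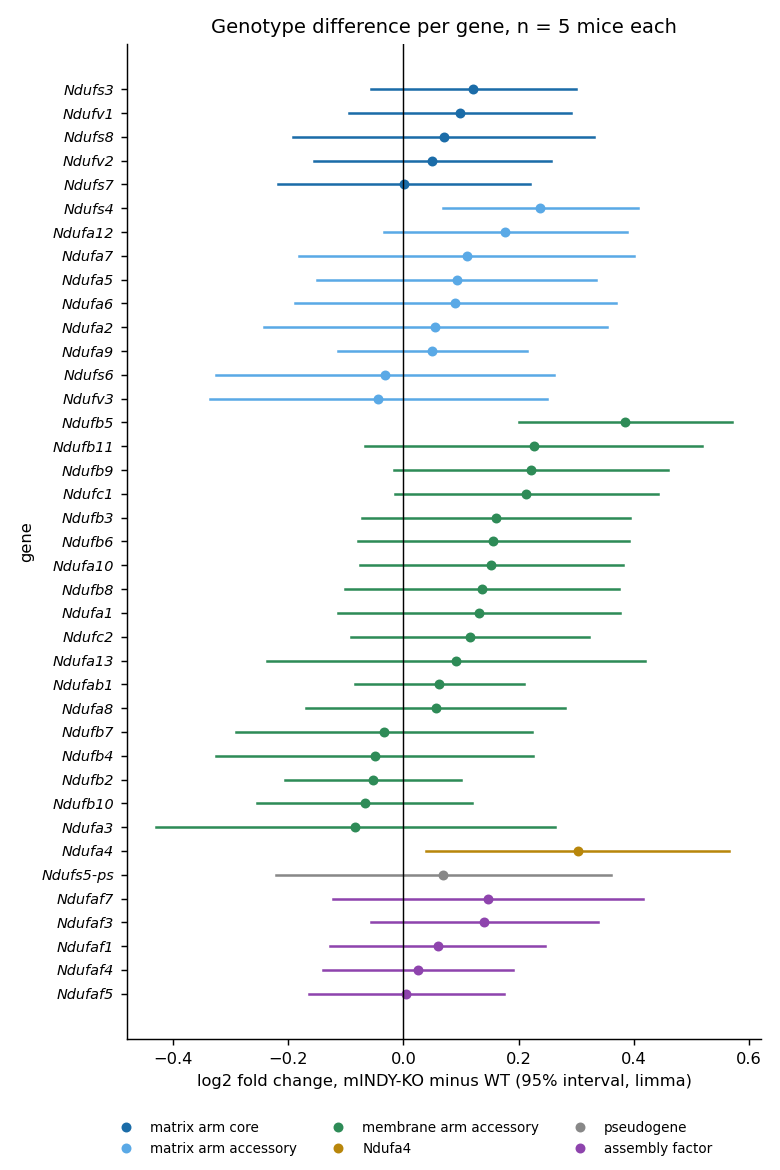
Log2 fold change between mINDY-KO and WT adrenals (x axis) for the brightest probe of each of 39 Nduf genes (y axis), grouped by their place in complex I; points are limma estimates and lines their 95% intervals (n = 5 mice each). The intervals of Ndufb5, Ndufs4 and Ndufa4 lie above 0 and the other 36 include it.

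In the matrix arm, the core subunits carry the electrons. All 5 that were detected had a mean above that of WT, with a median log2 fold change of 0.070. Ndufs3, a core subunit without a cluster of its own, had the smallest p of them. Its level was 4.20, 4.33, 4.62, 4.49 and 4.32 in mINDY-KO mice and 4.20, 4.31, 4.21, 4.38 and 4.25 in WT mice. The highest values were those of mINDY-KO replicates 3 and 4 and the groups overlapped, with a log2 fold change of 0.12 (SE 0.083, adjusted p = 0.641, limma). Ndufv1, which binds NADH and the flavin, followed with 0.098, and the iron-sulfur subunits Ndufs8 with 0.070 and Ndufv2 with 0.050. Ndufs7, which holds the cluster next to the quinone site, had nearly equal means (log2 fold change 0.0014, 95% interval -0.22 to 0.22).

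Among the accessory subunits of the matrix arm, 7 of 9 had a higher mean in mINDY-KO mice (median log2 fold change 0.090). Ndufs4, which helps to hold the NADH-oxidizing module on the arm and whose loss causes a Leigh-like encephalopathy in mice, was read by 4 probes. On the brightest, its level was 3.68, 3.78, 3.84, 3.86 and 3.76 in mINDY-KO mice and 3.41, 3.50, 3.42, 3.73 and 3.66 in WT mice. WT replicates 4 and 5 reached into the range of, or close to, the mINDY-KO mice, and the other 3 WT mice lay below them. The log2 fold change was 0.24 (SE 0.079, adjusted p = 0.309, limma), and the other 3 probes gave 0.23, 0.24 and 0.19, with WT replicate 5 the highest WT mouse on each. Ndufa12, a neighbour of Ndufs4 in the same module, had a log2 fold change of 0.18. The others that were higher in mean were Ndufa7 at 0.11, Ndufa5 at 0.092 (0.14 on its second probe), Ndufa6 at 0.090, Ndufa2 at 0.056 and Ndufa9 at 0.050. Ndufs6, a zinc-binding subunit, had a fold change of -0.032 and Ndufv3 one of -0.043, and the 3 probes of Ndufv3 did not share a sign, since the other 2 gave 0.071 and -0.094.

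The membrane arm held the gene with the largest difference of all members. Ndufb5, an accessory subunit of this arm, had a level of 2.55, 2.53, 2.69, 2.49 and 2.33 in mINDY-KO mice and of 2.07, 2.11, 1.97, 2.17 and 2.36 in WT mice. Only WT replicate 5 reached the mINDY-KO range, where it lay just above mINDY-KO replicate 5. Its log2 fold change was 0.39 (SE 0.087, 95% interval 0.20 to 0.57, adjusted p = 0.157, limma). Over the 18 accessory subunits of the membrane arm, 13 were higher in mean in mINDY-KO mice, with a median of 0.12.

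After Ndufb5 came Ndufb11, an X-linked subunit, at a log2 fold change of 0.23. Its level was 0.01, 0.07, 0.34, -0.26 and 0.56 in mINDY-KO mice and -0.29, -0.17, 0.22, 0.03 and -0.20 in WT mice, so that the groups overlapped widely, and its second probe, detected in 6 mice, gave 0.075. Ndufb9, a LYR motif protein, had a fold change of 0.22, and its 5 mINDY-KO mice, at 1.73, 1.92, 1.90, 2.30 and 1.69, were all above the WT mean, with WT mice at 1.63, 1.68, 1.47, 1.81 and 1.86. Ndufc1 was next at 0.21 (0.19 on its second probe). The remaining higher subunits of this arm ran from Ndufb3 at 0.16, Ndufb6 at 0.16 (0.10 on its second probe) and Ndufa10 at 0.15 through Ndufb8 at 0.14, Ndufa1 at 0.13 and Ndufc2 at 0.12 to Ndufa13, also known as GRIM-19, at 0.091, Ndufab1 at 0.062 and Ndufa8 at 0.056 (0.017 on its second probe). Ndufab1, the mitochondrial acyl carrier protein, was detected in 6 mice only, so that its values lie near background. In 5 subunits the mean was lower in mINDY-KO mice, namely Ndufa3 at -0.083, Ndufb10 at -0.068, Ndufb2 at -0.053, Ndufb4 at -0.050 and Ndufb7 at -0.034.

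Ndufa4, on chromosome 6, bears a complex I name but is now assigned to cytochrome c oxidase. Its level was 5.10, 5.20, 5.53, 5.59 and 5.10 in mINDY-KO mice and 4.63, 5.05, 5.10, 5.22 and 5.01 in WT mice. WT replicate 1 was the lowest of the 10 mice and mINDY-KO replicates 3 and 4 were the highest, and the log2 fold change was 0.30 (SE 0.12, adjusted p = 0.391, limma). Without Ndufa4, 25 of 32 subunits were higher in mean in mINDY-KO mice and their median stayed at 0.092. The pseudogene Ndufs5-ps had a fold change of 0.069.

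**Figure D2:**
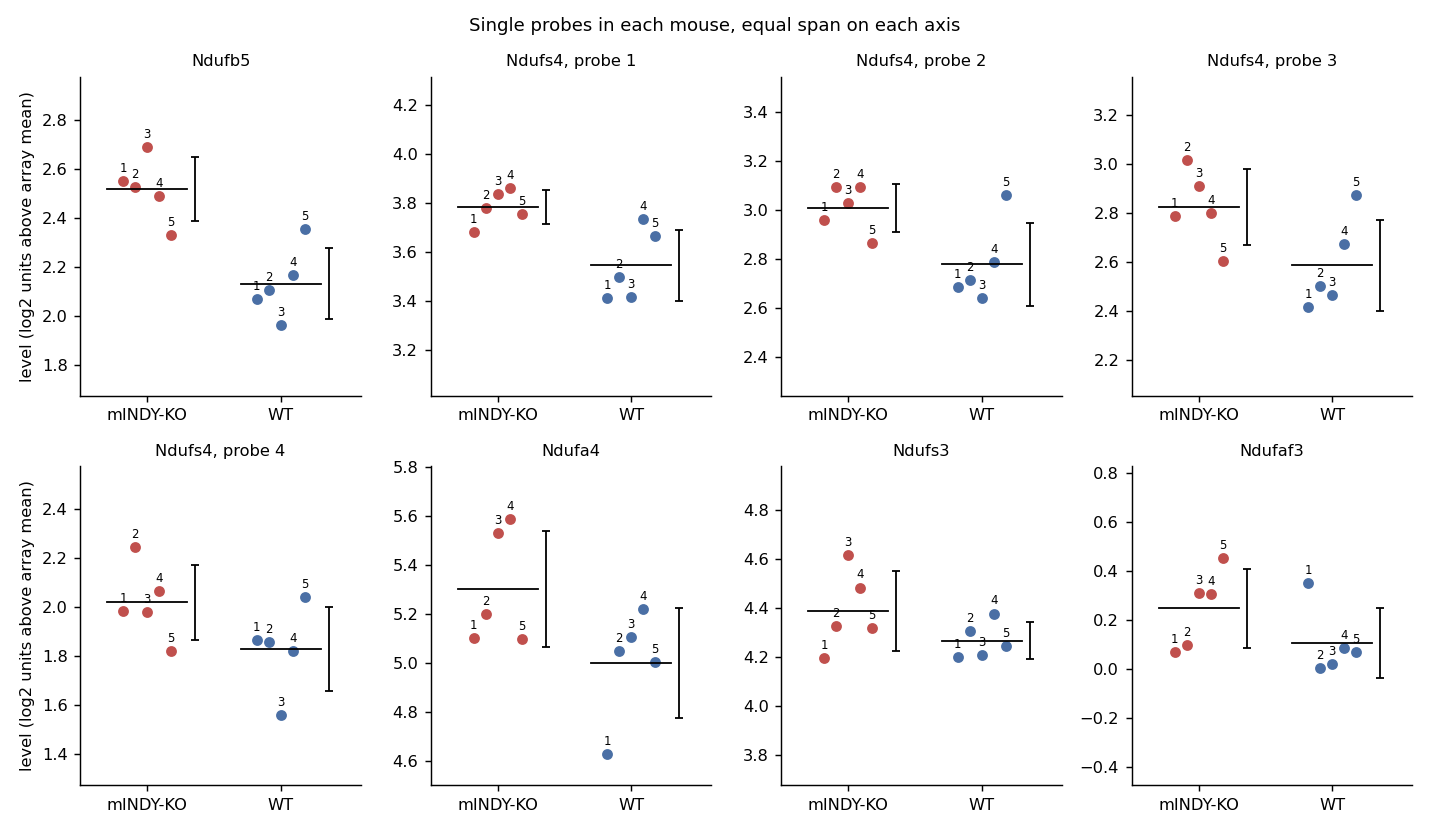
Level in each mouse (y axis, log2 units above the array mean, with an equal span on every axis) of Ndufb5, the 4 probes of Ndufs4, Ndufa4, Ndufs3 and Ndufaf3 in mINDY-KO and WT mice; numbers are replicates, horizontal lines means and bars SD (n = 5 each). In Ndufb5 only WT replicate 5 reaches the mINDY-KO range, and in each panel the groups overlap.

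The 5 assembly factors named Ndufaf all had a higher mean in mINDY-KO mice, by small amounts (median log2 fold change 0.059, from 0.0046 to 0.15). Ndufaf3, on chromosome 9, which with Ndufaf4 builds the ubiquinone-binding part of the matrix arm, had the smallest p. Its level was 0.07, 0.09, 0.31, 0.30 and 0.45 in mINDY-KO mice and 0.35, 0.00, 0.02, 0.08 and 0.07 in WT mice. WT replicate 1 lay among the 3 high mINDY-KO mice, and the fold change was 0.14 (SE 0.092, adjusted p = 0.619, limma). Ndufaf7, an arginine methyltransferase, had a fold change of 0.15, Ndufaf1, a factor of membrane arm assembly, 0.059, Ndufaf4 0.026 and Ndufaf5, which in humans hydroxylates NDUFS7, 0.0046 (-0.044 on its second probe).

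Assembly factors without an Nduf name did not share a direction. Of 11 that were detected, 5 were higher and 6 lower in mINDY-KO than in WT mice, with a median of -0.013, and 0 passed at an adjusted p under 0.05. At an unadjusted p under 0.05, Tmem126a (log2 fold change 0.20, SE 0.078, adjusted p = 0.380, limma) and Tmem126b (0.21) were higher in mINDY-KO mice and Acad9 (-0.19) was lower. These were 2 higher and 1 lower of 11, where 4.33% of all genes were higher and 7.01% lower at that p. Tmem126b and Acad9 belong to the same assembly complex of the membrane arm in humans, together with NDUFAF1. Nubpl, which delivers iron-sulfur clusters to complex I, was not detected.

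On the scaled levels, the mINDY-KO mice did not form 1 group in subunit expression. The mean level over the 33 subunits was 3.48, 3.51, 3.84, 3.84 and 3.47 in mINDY-KO mice, or 3.63 ± 0.19 (SD, n = 5), and 3.53, 3.61, 3.40, 3.54 and 3.58 in WT mice, or 3.53 ± 0.082 (SD, n = 5). Replicates 3 and 4 lay above every WT mouse, and replicates 1, 2 and 5 lay below 4 of the 5 WT mice. Of the 33 subunits, 14 had their highest level of all 10 mice in mINDY-KO replicate 3 and 15 in mINDY-KO replicate 4.

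The SD was larger among mINDY-KO than among WT mice in 27 of the 33 subunits (81.8%), against 56.9% of all genes and 70.6% of the 1410 genes with a mean level of at least 3. The median SD of a subunit was 0.24 in mINDY-KO mice and 0.15 in WT mice, against 0.14 in mINDY-KO mice and 0.12 in WT mice over all genes. Over those 1410 genes it was 0.16 in mINDY-KO mice and 0.12 in WT mice. They were not matched to the subunits in level, with a mean of 4.02 in mINDY-KO mice against 4.49 for the subunits of at least that level. Each array was scaled by its own SD, which ranged more widely over mINDY-KO arrays (1.441 to 1.667) than over WT arrays (1.514 to 1.598). The part of this scaling in the spread was not tested. Among the WT mice, WT replicate 3 stood lowest of its genotype in 22 of the 33 subunits, and WT replicate 2 stood highest in 11.

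**Figure D3:**
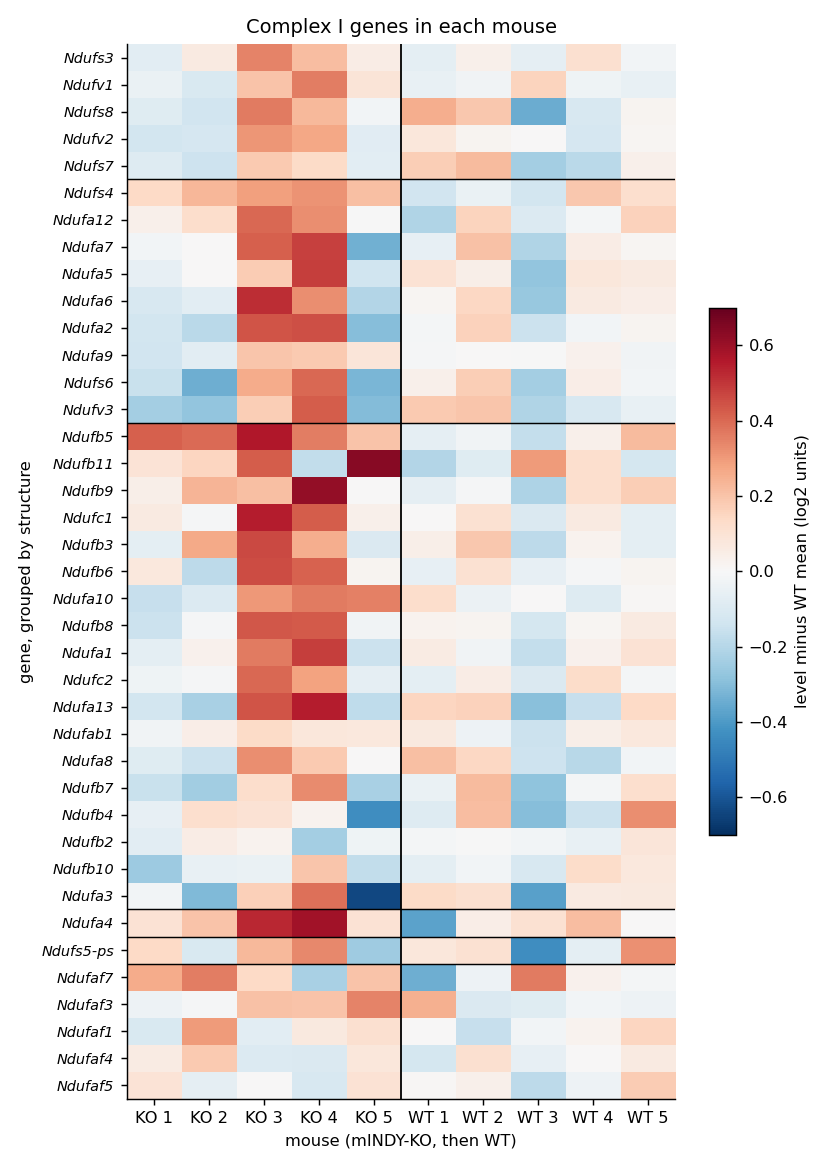
Level of each of 39 Nduf genes minus its WT mean (colour, log2 units) in each mouse (columns, mINDY-KO then WT), with genes (rows) grouped by their place in complex I. Most subunits are high in mINDY-KO replicates 3 and 4 and low in WT replicate 3, whereas Ndufb5 and Ndufs4 are high in all 5 mINDY-KO mice and 4 of the 5 assembly factors at the bottom are lower in mean in replicates 3 and 4 than in the other mINDY-KO mice.

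Since replicates 3 and 4 were also the mice of the dimmest arrays, they were set against the other 3 mINDY-KO mice without a test. The subunits had a median difference of 0.37 between replicates 3 and 4 and replicates 1, 2 and 5, and 31 of 33 were higher in replicates 3 and 4. The difference was 0.67 in Ndufa13, 0.65 in Ndufa2 and 0.55 in Ndufa6, but 0.12 in Ndufb5 and 0.11 in Ndufs4. Ndufa6, another LYR motif protein, shows the pattern of the scaled levels. Its level was 5.46 and 5.26 in mINDY-KO replicates 3 and 4 and 4.83, 4.87 and 4.73 in replicates 1, 2 and 5, with WT mice between 4.67 and 5.09. Before centring and scaling, its signal was 8562 and 5921 in replicates 3 and 4, on the dimmest arrays. It was 11569, 15841 and 9384 in replicates 1, 2 and 5. The mean log2 signal of the array was 7.78 and 7.69 in replicates 3 and 4 and 8.43, 8.77 and 8.43 in replicates 1, 2 and 5. The uncentred signals thus do not show the split, and its size on centred but unscaled signals was not computed. The 2 subunits that ran the other way were Ndufb11 at -0.17 and Ndufb2 at -0.090.

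Without replicates 3 and 4, which were left out only after the data had been seen, the scaled levels of the subunits turned round, as did those of all genes with a mean level of at least 3. These 2 mice had the highest subunit means, so that a lower subunit median without them follows from that choice and is no separate support. Between mINDY-KO replicates 1, 2 and 5 and the WT mice, 11 of 33 subunits were higher in mean in mINDY-KO mice and the median was -0.062. Of the 1410 genes of that level 534 were higher (median -0.042), and of all genes 50.1% (median 0.00046). Again 0 Nduf genes passed the adjusted test. Ndufb5 had a log2 fold change of 0.34, Ndufs4 one of 0.19 and Ndufa4 one of 0.13, while Ndufs3 came to 0.013. Leaving out only replicate 3 gave a subunit median of 0.044, leaving out only replicate 4 gave 0.032, and leaving out WT replicate 3 gave 0.051.

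**Figure D4:**
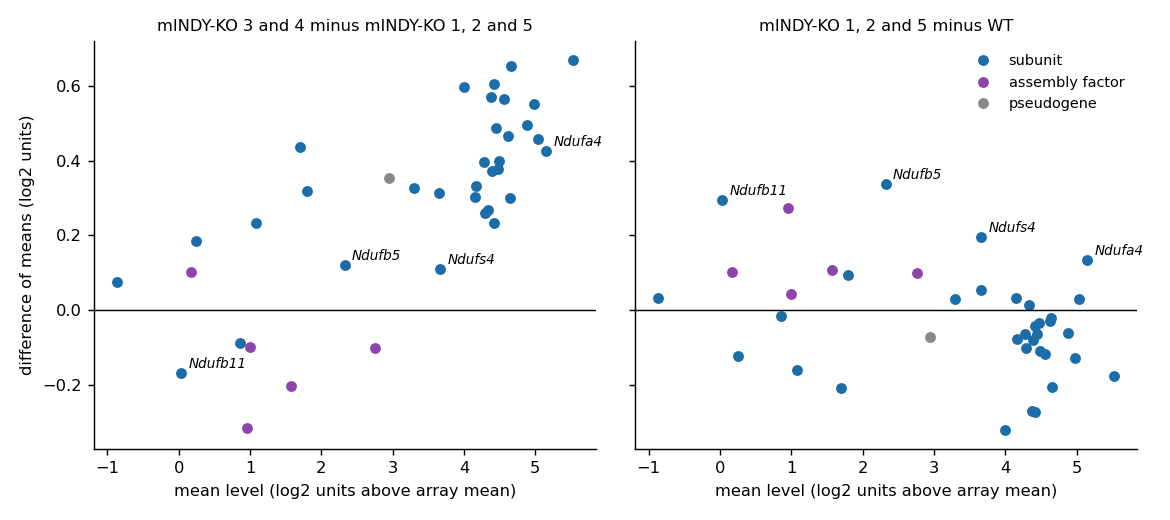
Difference between mINDY-KO replicates 3 and 4 and replicates 1, 2 and 5 (left, y axis, log2 units) and between mINDY-KO replicates 1, 2 and 5 and WT mice (right), against the mean level of each Nduf gene (x axis, log2 units above the array mean); each point is 1 gene. On the left the bright subunits lie highest, with Ndufb5 at 0.12 and Ndufs4 at 0.11, and on the right most bright subunits lie under 0 while Ndufb5, Ndufs4 and Ndufa4 lie above it.

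The pattern followed the brightness of the probes. For the 25 subunits with a mean level of at least 3, the median difference between mINDY-KO replicates 3 and 4 and replicates 1, 2 and 5 was 0.40, with 25 of 25 higher, against 0.18 over all 1410 genes of that level. For the 8 dimmer subunits it was 0.15, against -0.090 over all 7892 genes of a level under 3. Between genotypes, 22 of the 25 bright subunits were higher in mean in mINDY-KO mice (median 0.098), as were 61.8% of all bright genes (median 0.036), and 4 of the 8 dim subunits were higher (median 0.014), as were 40.3% of all dim genes. The part of array brightness, and of scaling by each array's own SD, in the subunit values was not tested. Nor was the difference between mINDY-KO replicates 3 and 4 and replicates 1, 2 and 5 computed without that scaling. The split between these mice is therefore described for the scaled levels only, in the text and in the figures.

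**Figure D5:**
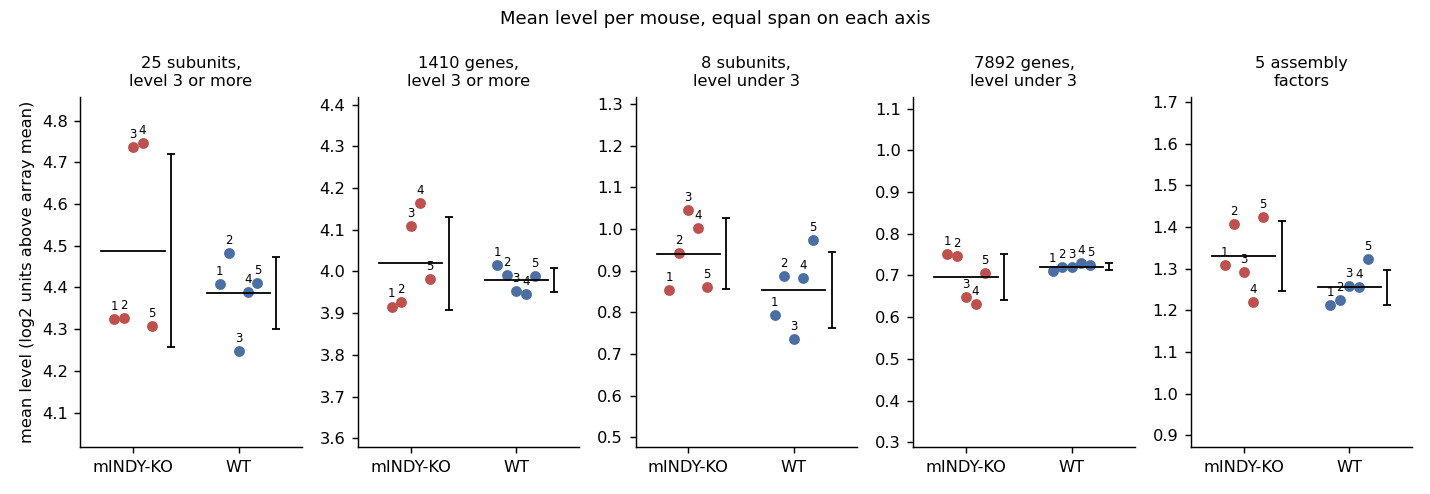
Mean level per mouse (y axis, log2 units above the array mean, with an equal span on every axis) over 25 bright and 8 dim complex I subunits, over all 1410 bright and 7892 dim genes, and over the 5 assembly factors; numbers are replicates, horizontal lines means and bars SD (n = 5 mice each). mINDY-KO replicates 3 and 4 lie highest in the bright subunits and in all bright genes, and lowest in all dim genes.

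The 5 assembly factors all had a mean level under 3. In 1 of them, Ndufaf3, replicates 3 and 4 were higher than the other mINDY-KO mice, and the median difference was -0.10, close to the -0.090 of all genes of that level, of which 2167 of 7892 were higher. All 5 were higher in mean in mINDY-KO replicates 1, 2 and 5 than in WT mice, with a median of 0.10, which is above the 0.059 of all 5 mINDY-KO mice. Genes of a level under 3 moved the same way, from a median of -0.027 to 0.0070, with 4130 of 7892 higher in replicates 1, 2 and 5. Their mean level was 1.31, 1.41, 1.29, 1.22 and 1.42 in mINDY-KO mice and 1.21, 1.22, 1.26, 1.26 and 1.32 in WT mice, with overlap. Leaving out mINDY-KO replicate 2 brought their median to 0.022, leaving out mINDY-KO replicate 1 brought it to 0.10, replicate 3 to 0.092 and WT replicate 5 to 0.097.

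Other nuclear genes of mitochondrial respiration had values close to those of complex I, and all share the same 10 arrays. The median log2 fold change was 0.16 in complex II (6 of 7 genes higher in mINDY-KO mice, smallest p in Sdhb), 0.13 in complex III (6 of 7, Uqcrh), 0.12 in complex IV (11 of 11, Cox5a), 0.10 in the ATP synthase (14 of 14, Atp5a1) and 0.095 in the mitochondrial ribosome (52 of 70, Mrps18c). Cytosolic ribosomal proteins, which are not mitochondrial, had a median of 0.089 (48 of 58, smallest p in Rps7). At an adjusted p under 0.05, 0 genes passed in each of these lists. Between mINDY-KO replicates 3 and 4 and replicates 1, 2 and 5, the median difference was 0.54 in complex IV, 0.54 in the cytosolic ribosome, 0.39 in the ATP synthase and 0.24 in complex III, against 0.094 in complex II and 0.095 in the mitochondrial ribosome.

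Genes that are known to drive mitochondrial biogenesis had a median near that of all genes, but fewer of them were higher. Of 9 detected, 2 (22.2%, against 43.6% of all genes) had a higher mean in mINDY-KO mice, Tfam at 0.13 and Gabpa at 0.044. The other 7, among them Ppargc1b at -0.14, had a lower one. The median was -0.031, against -0.019 over all genes and -0.027 over genes of a level under 3. Nrf1, the factor whose core motif lies in the Ndufa6 window, had a log2 fold change of -0.15 (SE 0.072, adjusted p = 0.464, limma). Ppargc1a, the coactivator of these factors, was detected in 2 mice and Yy1 in 0, so that neither was tested. The complex I subunits encoded by mitochondrial DNA were not analysed here.

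Marker genes of the cells an adrenal holds were read beside the subunits. The mean level of the 7 cortical markers was 3.74, 3.68, 4.04, 4.07 and 3.98 in mINDY-KO mice and between 3.76 and 3.87 in WT mice. It was thus highest in replicates 3 and 4, as for the subunits, and next in replicate 5, where the subunits were low. The mean level of the 7 medullary markers ran from 3.25 to 3.83 in mINDY-KO mice and from 3.43 to 4.0 in WT mice. Of these 7, 6 were lower in mean in mINDY-KO mice. Over all genes, 43.6% had a higher mean in mINDY-KO mice, a share that stands beside each marker count here. Ddc, the DOPA decarboxylase, was lower in every mINDY-KO than in every WT mouse, as were 1.38% of all genes (log2 fold change of Ddc -0.35, SE 0.087, adjusted p = 0.170, limma). The mean level of the 5 macrophage markers ran from 1.86 to 2.36 in mINDY-KO mice and from 1.55 to 2.22 in WT mice, and all 5 were higher in mean in mINDY-KO mice. The 3 adipocyte markers detected were also higher in mean in mINDY-KO mice, Adipoq, detected in 8 mice, by 0.70 (SE 0.26, adjusted p = 0.348, limma), Lep by 0.052 and Plin1 by 0.033. Their mean level was -0.24, -0.25, -0.19, -0.53 and 0.41 in mINDY-KO mice and between -0.56 and -0.17 in WT mice. Only mINDY-KO replicate 5 thus lay above the WT range. All 3 markers had a lower mean in replicates 3 and 4 than in replicates 1, 2 and 5, which include that mouse. Of the brown adipocyte markers, Ucp1, Dio2 and Elovl3 were detected in 0 mice and Cidea in 1, whereas Cox7a1 and Cox8b, respiratory chain subunits, were detected in 10. The mean level of these 2 ran from 1.29 to 2.44 in mINDY-KO mice and from 1.66 to 2.24 in WT mice, with a median difference of 0.62 between mINDY-KO replicates 3 and 4 and replicates 1, 2 and 5, in the direction of the subunits. The part of cell makeup in the subunit values was not tested.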

How the data were processed

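Adrenal RNA of 5 mINDY-KO and 5 WT littermates was measured on 11 1-colour Illumina bead arrays, 1 of them a technical repeat of WT replicate 1. Groups and replicate numbers come from the sample labels. The authors deposited the signal intensity of each probe and its detection p-value without normalization across arrays, as GenomeStudio exported them (2011.1 by the submitters' processing notes). The authors also deposited a Z score of each probe, which equals its log10 signal minus the array's mean, divided by the array's SD (largest difference 0.0102).

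The same formula was applied to the signals and the result multiplied by 1.57, the mean SD of log2 signal over arrays. Both arrays of WT replicate 1 were averaged. Probes with a detection p under 0.05 in at least 5 of 10 mice were kept, 13341 of 25697. The difference between genotypes was tested two-sided with lmFit and eBayes of limma 3.58.1 (R 4.3.3), p-values were adjusted after Benjamini and Hochberg over the kept probes, and the code was tested on simulated data. A gene with several probes is given by its brightest kept probe. Figures were drawn with matplotlib (version 3.10.9). Gene names come from the platform annotation, which names 23978 probes by 1 symbol and leaves 1719 unnamed.

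Members with an unadjusted p under 0.05, and the member of smallest p in each structural group, are given in every mouse. Others are named once, and of other lists the gene of smallest p. Further genes given in every mouse, Ndufb11, Ndufb9 and Ndufa6, and those named in the regulator and assembly lists, were chosen after their values were seen. Members and lists were chosen with earlier results of these data known. The authors' Z ratios and thresholds were not used. The alternatives were quantile and neqc normalization, log2 signal centred on the array median, the deposited Z scores, no detection filter or one at 0.01, a single array of WT replicate 1, all probes of a gene averaged, a replicate block, array quality weights, an intensity trend and leaving out each mouse. Which slide held which array was not given in the sources used, and no slide effect was fitted. Precision is limited by the number of arrays.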

Additional observations from a re-analysis of the deposited data

Results flagged for a closer look

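Among 82 groups of 5 mice (a gene or a mean level in 1 genotype), 5 held a mouse far from the other 4, with a gap of over 0.71 of the group's range, and chance alone gives such a gap in about 5% of groups. All 5 were WT groups. Ndufaf3 was at 0.35 in WT replicate 1, with the other WT mice between 0.0034 and 0.084. The other 4 lay in WT replicate 3. Ndufa5 was at 3.96 there, with the other WT mice between 4.28 and 4.34, Ndufa3 was at 3.67, against 4.11 to 4.18, and Ndufb8 was at 4.69, against 4.83 to 4.88. Ndufv1 ran the other way in WT replicate 3, at 4.75, with the other WT mice between 4.55 and 4.58.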

How the results depend on the processing

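No Nduf gene passed the adjusted test under any of 22 alternatives, which makes 0 calls throughout. Ndufb5 had the smallest adjusted p of the members under each of them, between 0.110 and 0.644, with a log2 fold change of 0.34 to 0.44. Ndufs4 ran from 0.19 to 0.28 (adjusted p 0.206 to 0.874) and Ndufa4 from 0.13 to 0.36. At an unadjusted p under 0.05, Ndufa4 was no longer counted under quantile normalization, neqc and centring on the array median, and Ndufs4 under the last of these, and Ndufa4 was not counted without WT replicate 1, mINDY-KO replicate 3 or mINDY-KO replicate 4 either (0.21, 0.25 and 0.23). With mINDY-KO replicates 3 and 4 left out, as chosen after seeing the data, 11 of 33 subunits were higher in mINDY-KO mice, against 50.1% of all genes. The subunit median was then -0.062. Leaving out 1 mouse at a time gave 20 to 31 subunits higher, a subunit median of 0.032 to 0.14, an assembly factor median of 0.022 to 0.10 and 0 calls. Under quantile normalization and neqc, 20 subunits were higher, with medians of 0.031 and 0.032, and Ndufa2, Ndufa8, Ndufa9, Ndufa13, Ndufs7 and Ndufv2 changed sign. Array quality weights gave a median of 0.046. Under the other planned settings, 25 or 26 were higher. The median of all genes stayed between -0.027 and 0.0026. With a replicate block the subunit median was 0.092, 26 subunits were higher, 0 passed and the adjusted p of Ndufb5 was 0.361. Same-numbered mice did not deviate together (r = -0.11, -0.20, -0.17, -0.30 and -0.21 across probes, which are not independent, and 0 of 5 mINDY-KO mice closest to their own number), so they share only a number. Dim members such as Ndufab1 lie near background, where a difference is least certain.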
